A study of Mus musculus with 8 samples.

Results

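The interferon-inducible GTPases described here were 10 mouse genes of 2 families, the guanylate-binding proteins (GBP) Gbp2, Gbp3, Gbp5, Gbp7 and Gbp9, and the immunity-related GTPases (IRG) Iigp1, Igtp, Irgm1, Irgm2 and Tgtp2. They were chosen as a list of symbols, with earlier results of these data known, and matched to the Ensembl gene identifiers of the deposited table, and all 10 were found among its 46517 genes. The study asked what the loss of Elmo1, an adaptor protein of the actin cytoskeleton and of the uptake of dying cells, does to osteoclasts, the multinucleated cells that degrade bone. Bone marrow of Elmo1-/- mice, which lack Elmo1 in every tissue, and of littermate Elmo1+/- mice, which keep 1 intact copy, was cultured with M-CSF from medium conditioned by L929 cells (10% of the medium) and with RANKL, as a GST fusion, at 50 ng/ml over 7 days. The mice were 6 to 8 weeks old, and the mRNA of 4 cultures per genotype was sequenced, 1 library per mouse. The titles call the control libraries wild type, whereas their genotype label is Elmo1+/-, which is used here. There is therefore no Elmo1+/+ group, and every culture came from a mouse with at least 1 mutant allele. Libraries of both genotypes carry the replicate numbers 1 to 4, and by the study's methods each of 2 experiments used 2 mice of either genotype, but which mice these were is not stated.

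GBP and IRG proteins are GTPases that cells make in response to interferons. Interferon gamma signals through the kinases JAK1 and JAK2 to genes that carry a gamma-activated site (GAS), whereas type I interferons signal to genes that carry an interferon-stimulated response element (ISRE), a site that IRF1 also binds. The proteins gather on vacuoles that hold microbes, on bacteria and on cell membranes, where GBP proteins help to open vacuoles and to start inflammasome signalling. Among IRG proteins, Iigp1 and Tgtp2 are effectors that coat the vacuole, and Irgm1, Irgm2 and Igtp are regulators that sit on the cell's own membranes and hold the effectors inactive there. Macrophages and their relatives make these proteins, and in the bone interferon gamma and interferon beta are known to restrain the formation of osteoclasts.

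The regulators and effectors can be told apart in the coding sequence, in the loop that binds the phosphates of GTP. The stretches below are the 24 coding bases of that loop (8 codons, found as glycine, any 4 residues, glycine, lysine or methionine, and serine or threonine), and the capitals mark the codon for lysine or methionine. They are shown because this codon separates the 3 regulators from the other 7 members. They were read from the GENCODE mouse release 21 transcripts (GRCm38), each from a single coding exon.
Irgm1 (chr11:48866761-48866784, minus strand): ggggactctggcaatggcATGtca
Irgm2 (chr11:58219695-58219718, plus strand): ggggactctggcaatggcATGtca
Igtp (chr11:58206275-58206298, plus strand): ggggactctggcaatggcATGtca
Tgtp2 (chr11:49059534-49059557, minus strand): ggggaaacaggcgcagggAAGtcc
Gbp2 (chr3:142623826-142623849, plus strand): ggcctctaccgcacaggcAAAtcc
Gbp5 (chr3:142500689-142500712, plus strand): ggtctttatcgcacaggcAAAtcc
Gbp9 (chr5:105105698-105105721, minus strand): ggattgtaccgtacagggAAGtcc
The 3 regulators carried methionine and shared all 24 bases. The other 7 members, Iigp1 included, carried lysine.

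In the upstream sequence the members shared the ISRE letters. RefSeq promoter windows (GRCm38.p6, 250 bases before to 50 after a start site) were at hand for 8 members, Gbp2, Gbp3, Gbp5, Gbp7, Igtp, Irgm1, Irgm2 and Tgtp2, in 9 windows. Both strands were searched for the ISRE core GAAANNGAAA and for the GAS letters TTCNNNGAA, 2 motifs that can share bases. All 8 genes had at least 1 ISRE core, against 3.44% of all 32851 windows of 300 bases, and 5 of the 8 had GAS letters, against 8.30% of all windows. In the GENCODE annotation, the Gbp2 and Irgm1 stretches below overlap an exon of the same gene. Those of Irgm2 and Gbp5 lie within the gene but outside its exons. All the stretches lie before the RefSeq start site and are printed on the gene's own strand, with both motifs in capitals. They are shown because the known interferon responses of these genes run through such letters.
Igtp (chr11:58199446-58199555, plus strand): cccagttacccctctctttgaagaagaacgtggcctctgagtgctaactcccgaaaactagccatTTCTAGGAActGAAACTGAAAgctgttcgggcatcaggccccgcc
Irgm2 (chr11:58214867-58214976, plus strand): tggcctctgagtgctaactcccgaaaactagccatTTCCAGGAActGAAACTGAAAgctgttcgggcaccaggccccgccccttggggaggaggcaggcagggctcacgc
Tgtp2 (chr11:49064213-49064322, minus strand): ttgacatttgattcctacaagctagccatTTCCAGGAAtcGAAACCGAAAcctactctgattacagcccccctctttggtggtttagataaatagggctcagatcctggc
Irgm1 (chr11:48871428-48871457, minus strand): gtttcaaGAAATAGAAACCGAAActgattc
Gbp7 (chr3:142530226-142530335, plus strand): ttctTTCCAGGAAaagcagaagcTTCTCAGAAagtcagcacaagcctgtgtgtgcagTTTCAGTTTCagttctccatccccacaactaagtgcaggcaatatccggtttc
Gbp3 (chr3:142559992-142560021, plus strand): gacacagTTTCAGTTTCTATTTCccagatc
Gbp2 (chr3:142620594-142620623, plus strand): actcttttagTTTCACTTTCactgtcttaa
Gbp5 (chr3:142496759-142496788, plus strand): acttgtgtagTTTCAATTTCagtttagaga
In Igtp, Irgm2 and Tgtp2 the GAS letters stood 2 bases before the ISRE core. The Igtp and Irgm2 stretches were alike at 78 of 80 aligned bases. In the 4 GBP genes the ISRE core was read on the opposite strand, and in Gbp3 and Irgm1 a pair of ISRE cores overlapped. A match of letters is a description and does not show that a factor was bound in these cells.

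On the genome, Gbp5, Gbp7, Gbp3 and Gbp2 lay in this order on chromosome 3, with Gbp2b between Gbp3 and Gbp2, Gbp9 on chromosome 5, Irgm1, Tgtp2, Igtp and Irgm2 on chromosome 11, and Iigp1 on chromosome 18. Igtp (58199556 to 58207591) and Irgm2 (58199618 to 58222782) share annotated exons, so reads could be split between them or lost. Gbp9 overlaps exons of Gbp4 and Gbp8, and Tgtp2 is nearly the same as its neighbour Tgtp1, which held 0 to 10.8 normalized counts per library. Gbp7 shares exon bases with the pseudogene Gm43802 on the same strand, and Gbp2 with the microRNA gene Mir6381 on the opposite strand. How the counting treated such reads, and whether it used the strand, is not given in the sources used here, so the values of Igtp, Irgm2, Gbp9 and Tgtp2 are uncertain to that extent.

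The libraries held 20905502 to 40846651 reads on genes. Elmo1 itself checked the labels, with 274 to 316 normalized counts in the 4 Elmo1-/- libraries and 1423 to 1769 in the 4 Elmo1+/- libraries. A normalized count is the number of reads on a gene divided by a size factor of the library. Elmo1-/- replicate 1 stood apart, at 52.3 on the first principal component of the 14139 genes tested (62.3% of the variance), and the other libraries numbered 1 and 2 lay between 6.03 and 26.3, against -31.9 to -24.6 for those numbered 3 and 4. The 12 osteoclast markers together, among them Acp5, Ctsk and Mmp9, summed to 454766 normalized counts in Elmo1-/- replicate 1, to 535427 to 698605 in the other libraries numbered 1 and 2, and to 1040613 to 1186281 in those numbered 3 and 4. The genotype comparison of the members is therefore also given within each replicate number. That of the members, of the other gene lists and of the osteoclast, macrophage and neutrophil markers is also given without Elmo1-/- replicate 1. In such cultures fewer cells of a type and less RNA per cell cannot be told apart.

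All 10 GTPase genes were detected in every library, with at least 54 reads, and all 10 passed the filter on low values. Their levels are given as normalized counts per kilobase of annotated exon, as the mean over the 4 Elmo1+/- libraries. Irgm1 was the highest at 514 ± 60.8 (SD, n = 4), followed by Gbp2 at 407 ± 76.8, Igtp at 396 ± 59.8, Irgm2 at 315 ± 41.6, Gbp3 at 168 ± 44.1 and Gbp7 at 102 ± 19.6. Gbp9 at 43.7 ± 7.68, Tgtp2 at 32.0 ± 6.42, Gbp5 at 18.2 ± 5.12 and Iigp1 at 17.1 ± 4.69 were the lowest. The 3 regulators thus stood among the 4 highest members, and the effectors Tgtp2 and Iigp1 among the 3 lowest. Between neighbours in this order, the ranges over the 4 libraries were apart for Irgm2 and Gbp3, for Gbp7 and Gbp9 and for Tgtp2 and Gbp5, and overlapped for the other 6 neighbours.

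The question of the design was whether the osteoclasts of the 2 genotypes differed in these genes. The means of all 10 were higher in Elmo1-/-, where 48.4% of all genes tested were higher, with log2 fold changes of 0.21 to 0.73 and a median of 0.35, against a median of -0.0031 over all genes tested. None of the 10 passed the test, however. The limma test across 14139 genes gave each of them a Benjamini-Hochberg adjusted p of 0.9999, and called 0.00707% of genes, which was Elmo1 alone. In the same test 3 of the 10, Gbp5, Iigp1 and Irgm2, had an unadjusted p under 0.05, against 0.941% of all genes. Neither edgeR nor DESeq2 called any member, each with 3 members at an unadjusted p under 0.05, against 142 and 137 of the 14139 genes. The values of the 2 genotypes overlapped in all 10 members, and 0.941% of all genes tested did not overlap.

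Among the regulators, Irgm1, which also takes part in autophagy, had 5439, 3495, 2728 and 3506 normalized counts in Elmo1-/- replicates 1 to 4 and 2937, 3443, 2581 and 2988 in Elmo1+/- replicates 1 to 4. Its highest value was that of Elmo1-/- replicate 1, and the other 3 Elmo1-/- libraries lay within or just above the range of the controls. Irgm2, a regulator found at the Golgi, had 1775, 1489, 1171 and 1536 in Elmo1-/- and 1040.1, 1349, 1032 and 1228 in Elmo1+/- libraries. Only Elmo1-/- replicate 3 fell inside the control range, and the log2 fold change was 0.35 ± 0.14 (SE), with a 95% interval of 0.04 to 0.67. Igtp, a regulator at the endoplasmic reticulum, had 1636, 964, 739 and 941 in Elmo1-/- and 843, 947, 667 and 749 in Elmo1+/- libraries. Numbers 2 to 4 gave log2 ratios of 0.03, 0.15 and 0.33, against 0.95 in number 1, and its log2 fold change of 0.36 ± 0.22 had an interval of -0.15 to 0.87.

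The effectors were lower and more variable. Iigp1 had 267, 149.7, 109 and 158 normalized counts in Elmo1-/- and 78.2, 101, 82.2 and 138 in Elmo1+/- libraries. Its log2 fold change, 0.73 ± 0.28 with an interval of 0.09 to 1.37, was the largest of the 10 with all 8 libraries, and only Elmo1-/- replicate 3 lay below the highest control. Tgtp2 had 298, 116, 73.5 and 139 in Elmo1-/- and 91.0, 121, 88.3 and 76.1 in Elmo1+/- libraries. The first of these stood alone, and the lowest of all 8 values was also an Elmo1-/- library, so that the interval of its log2 fold change of 0.56 ran from -0.29 to 1.41.

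Of the GBP genes, Gbp5, which promotes inflammasome assembly, had 184, 181, 138 and 211 normalized counts in Elmo1-/- and 88.3, 94.9, 143 and 156 in Elmo1+/- libraries. Its log2 fold change was 0.59 ± 0.22, with an interval of 0.09 to 1.08, and it did not rest on Elmo1-/- replicate 1, which was close to replicate 2. Gbp2, which with its neighbours on chromosome 3 helps to open vacuoles, had 1796, 1032, 990.0 and 1464 in Elmo1-/- and 841, 907, 1075 and 1273 in Elmo1+/- libraries. The controls numbered 3 and 4 were above Elmo1-/- replicate 3, and the log2 fold change was 0.34 ± 0.21, or 0.18 ± 0.18 without Elmo1-/- replicate 1.

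Gbp3 had 799, 572, 557 and 822 normalized counts in Elmo1-/- and 374, 485, 668 and 664 in Elmo1+/- libraries. As for Gbp2, number 3 was the pair in which the control was higher. Gbp9 had 326, 262, 235 and 332 in Elmo1-/- and 188, 244, 199 and 273 in Elmo1+/- libraries, and it was the only GBP gene with the Elmo1-/- library higher in all 4 numbers. Gbp7, the member with the smallest log2 fold change with all 8 libraries (0.21 ± 0.18), had 561, 551, 676 and 867 in Elmo1-/- and 441, 531, 691 and 630.1 in Elmo1+/- libraries. It was the only member whose value in Elmo1-/- replicate 1 was below the mean of the other 3 Elmo1-/- libraries, and its log2 fold change was 0.28 ± 0.19 without that library and 0.070 without Elmo1-/- replicate 4.

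**Figure D1:**
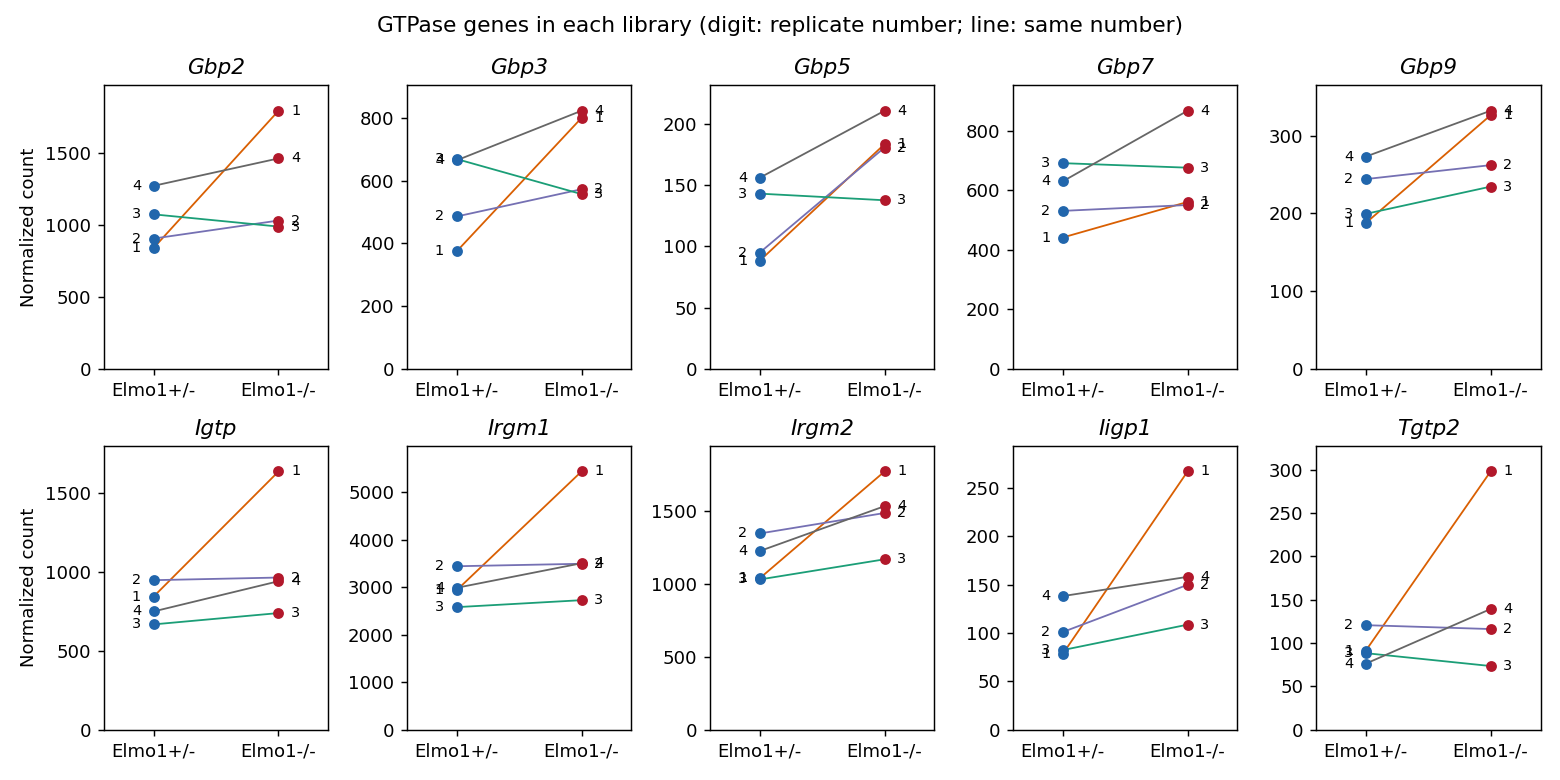
Normalized counts (vertical axis, from 0) of the 10 GTPase genes in the 4 Elmo1+/- (blue) and 4 Elmo1-/- (red) libraries, with the replicate number beside each point and lines joining the same number. Elmo1-/- replicate 1 is the highest of the 8 libraries for Gbp2 and all 5 IRG genes, and the points of the genotypes overlap for every gene.

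Within the replicate numbers, whose pairing of single libraries is not certain, the difference was uneven. In number 1 all 10 members were higher in Elmo1-/- (48.4% of all genes), by a median log2 ratio of 1.00, and in number 4 all 10 again (51.5%), by a median of 0.32. In number 2 all but Tgtp2 were higher (49.8%), but by a median of only 0.12, and in number 3 it was 5 of 10 (50.4%), with a median of 0.02. In number 3 these were 4 of the 5 IRG genes and 1 of the 5 GBP genes. Irgm1, Irgm2, Igtp, Iigp1 and Gbp9 were higher in all 4 numbers, a count of 5 of 10 against 4.7% of all genes tested, and the same 5 were higher in numbers 2, 3 and 4, where 11% of all genes were. All 3 regulators are among them.

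**Figure D2:**
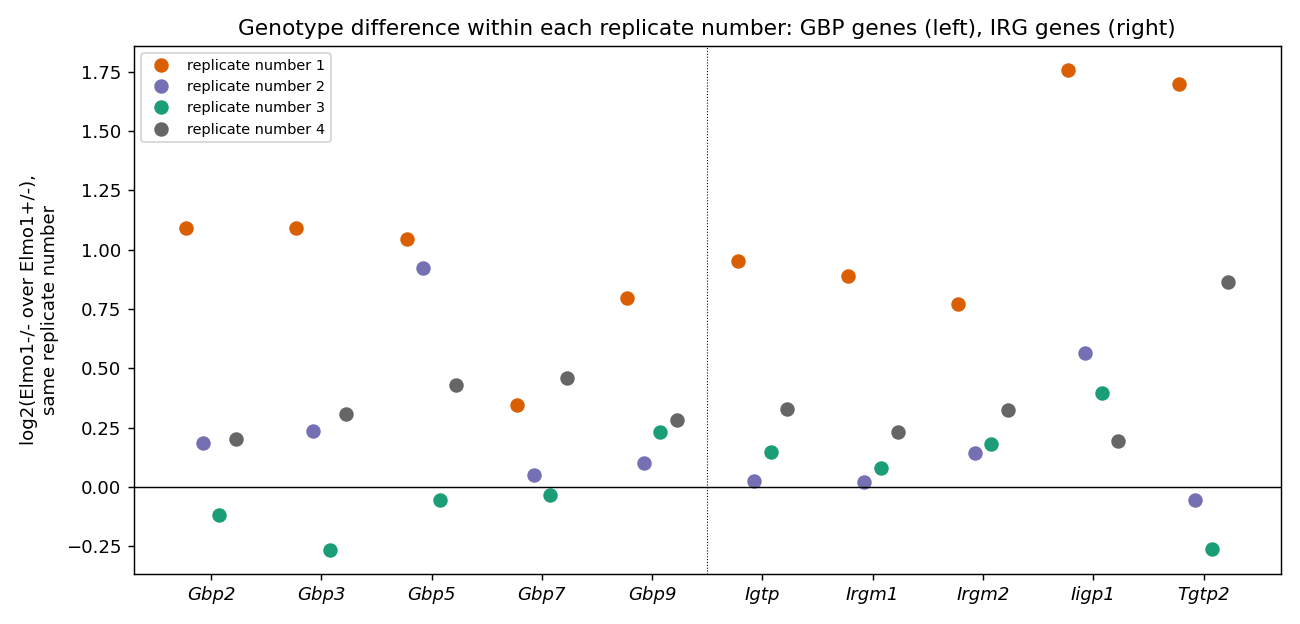
Log2 ratio of the Elmo1-/- over the Elmo1+/- library of the same replicate number (vertical axis) for the 5 GBP genes at the left and the 5 IRG genes at the right, 1 point per number. Number 1 is highest in 9 of the 10 genes, and the points below 0 belong to number 3, except that of Tgtp2 in number 2.

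Elmo1-/- replicate 1 held the highest value of all 8 libraries in 6 of the 10 members, all 5 IRG genes and Gbp2, where 27.1% of all genes tested had their highest value in that library. It was over 1.5 times the mean of the other 3 Elmo1-/- libraries in 5 of 10 members, against 8.8% of all genes. The ratio ran from 0.80 for Gbp7 to 2.72 for Tgtp2, with a median of 1.86 over the IRG genes and 1.18 over the GBP genes. That library also had the highest level of Irf7, an interferon-induced factor, at 25956 normalized counts against 4038 to 9340 in the other 7, the lowest sum of osteoclast markers, and the highest sum of the 8 macrophage markers (225245 against 163533 to 219333), and the part of these in the result was not tested.

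Without Elmo1-/- replicate 1 the means of all 10 members were still higher in the other Elmo1-/- libraries (51.4% of all genes were), with log2 fold changes of 0.12 to 0.57 and a median of 0.26. The median fell to 0.19 for the IRG genes and to 0.28 for the GBP genes, from 0.36 and 0.34 with all libraries. No member passed the limma test, with a smallest adjusted p of 0.936, and 0.00712% of all genes did. Gbp5 alone had an unadjusted p under 0.05, against 2.35% of all genes, with a log2 fold change of 0.57 ± 0.24. The value of Gbp5 thus changed little and was then the largest of the 10, above Iigp1 at 0.49 ± 0.23. The value of Tgtp2 went from 0.56 to 0.19, that of Igtp from 0.36 to 0.14 and that of Irgm1, then the smallest, from 0.31 to 0.12. Irgm2 at 0.27 ± 0.13, Gbp3 at 0.26 ± 0.23 and Gbp9 at 0.29 ± 0.17 moved less. Marker lists moved as well. Of the 12 osteoclast markers, 5 had a higher mean in Elmo1-/- with all libraries (median -0.035) and 12 without that library (median 0.23). The macrophage markers went from 7 to 4 of 8, and the neutrophil and precursor markers from 4 to 2 of 8 tested. None of these markers was called, and their part in the result was not tested.

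With the replicate number as a block 5 members had an unadjusted p under 0.05 (2.75% of all genes did), and 0 were called by limma. When both libraries numbered 1 were left out under that block, all 10 were still higher, by 0.09 to 0.43 with a median of 0.17. In libraries numbered 1 and 2 alone the log2 fold changes were 0.20 to 1.16 (46.9% of all genes were higher), and in those numbered 3 and 4 alone they were 0.02 to 0.30 (52.3%), with medians of 0.56 and 0.23. The difference between these sets was itself tested as an interaction. No member was called, nor was any gene (0%). In this main limma fit of all 8 libraries Gbp5 was the only member with an unadjusted p under 0.05, against 2.67% of all genes. Its interaction was -0.80 ± 0.29 on the log2 scale. DESeq2 called 14 genes for this interaction and none of the members.

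**Figure D3:**
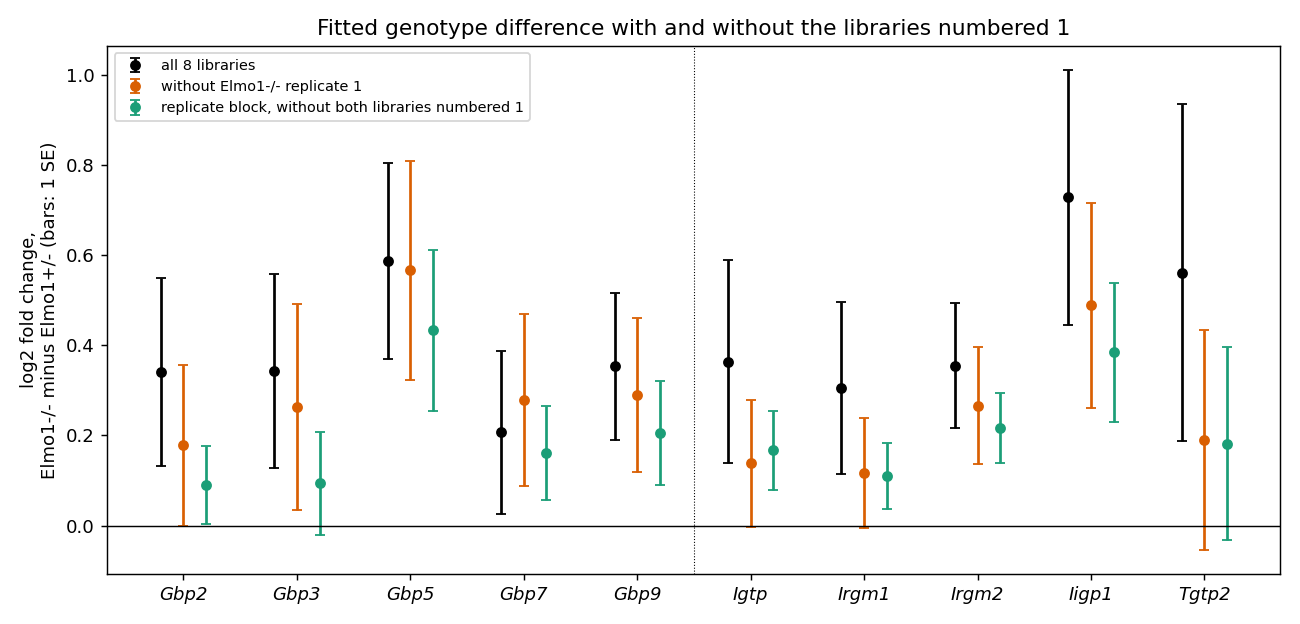
Fitted log2 fold change, Elmo1-/- minus Elmo1+/- (vertical axis, bars of 1 SE), for each GTPase gene in all 8 libraries (black), without Elmo1-/- replicate 1 (orange) and with a replicate block and both libraries numbered 1 left out (green). All 30 points lie above 0, and the medians over the 10 genes are 0.35, 0.26 and 0.17.

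The libraries numbered 3 and 4 were set against those numbered 1 and 2, with genotype as a further term, because the first principal component and the osteoclast markers separated them. All 5 GBP genes had higher means in numbers 3 and 4, with log2 differences of 0.03 to 0.45, and all 5 IRG genes had lower means, with differences of -0.61 to -0.17, while 49% of all genes tested had higher means. The signs held under both rescalings, but those of Gbp9 and Iigp1 turned when single libraries were left out, and the difference between the families was not tested. Gbp7 rose by 0.45 ± 0.09 (limma, adjusted p = 0.00616), and Igtp fell by 0.46 ± 0.16 with an adjusted p of 0.0499, just under the threshold. The count of 2 members called of 10 stands beside 32.6% of all genes tested, and so is not a result about the members. The call of Igtp was lost under 9 of the 16 alternatives, among them TMM rescaling (adjusted p = 0.0535), and that of Gbp7 under none of them. The osteoclast markers moved with this comparison, all 12 of them called higher in numbers 3 and 4. The sets were compared with that separation known, so these 12 calls are not a test. The p-values of the members come from the same choice of sets. The part of the osteoclast markers in the result was not tested.

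**Figure D4:**
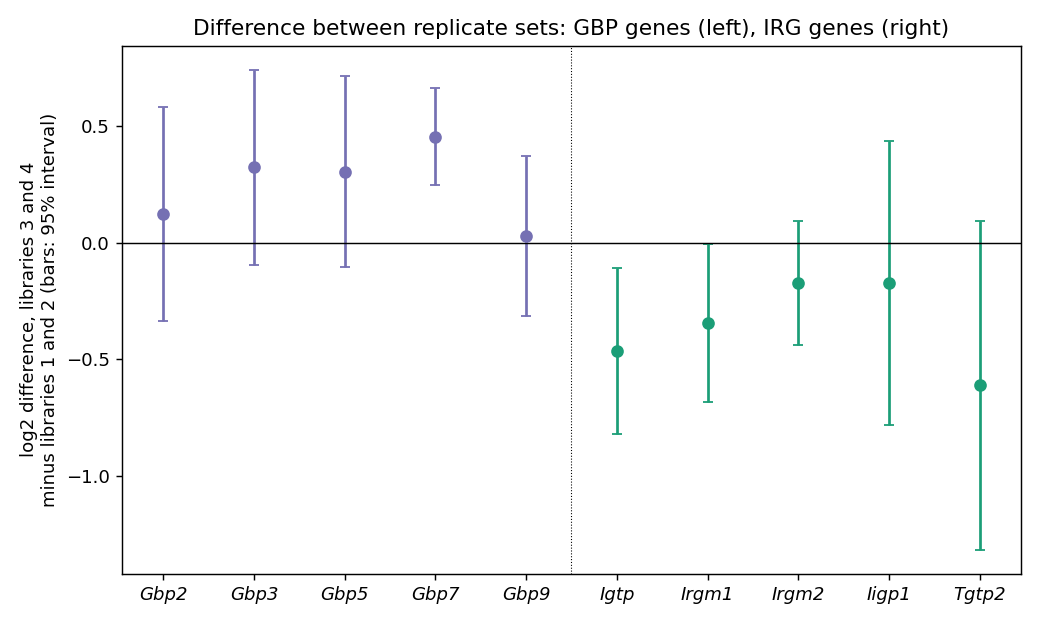
Log2 difference of libraries numbered 3 and 4 from those numbered 1 and 2 (vertical axis, bars of the 95% interval from limma) for the GBP genes at the left and the IRG genes at the right. The 5 GBP points lie above 0 and the 5 IRG points below, and the intervals of Gbp7, Igtp and Irgm1 leave out 0.

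The rest of the 2 families and their larger relatives, the very large inducible GTPases, were described from a list of 20 genes. Of these, 14 passed the filter on low values, 12 of these had a higher mean in Elmo1-/-, with a median log2 fold change of 0.23, and none was called. Without Elmo1-/- replicate 1, 12 of 13 tested had a higher mean, with a median of 0.22. Gm8995, Gm12250 and Irgq were the highest per kilobase. Gm12250, an IRG gene also called Irgb10, had 471 to 809 normalized counts in Elmo1-/- and 378 to 518 in Elmo1+/- libraries, with a log2 fold change of 0.44 ± 0.17 (0.29 ± 0.13 without Elmo1-/- replicate 1) and the Elmo1-/- library higher in all 4 numbers. Irgq, a divergent member of the family, had a log2 fold change of -0.07 ± 0.09. Gbp2b, Gbp10, Gbp11, Tgtp1, Irgc1 and Gm4841 were under the filter, with at most 12.3 normalized counts in any library.

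Of the genes upstream, the interferon genes Ifng and Ifnb1 were at or near 0. Ifng, interferon gamma, reached at most 1.67 normalized counts and Ifnb1, interferon beta, at most 2.84. Their receptor genes were expressed in every library, Ifngr2 at 6242 to 6735 normalized counts, Ifngr1 at 2270.3 to 5853 and Ifnar1 at 5345 to 6320.4, and none of the 4 receptor genes was called between genotypes. All 4 had a higher mean in Elmo1-/- with all libraries, and 2 of 4 did without Elmo1-/- replicate 1. Among 15 genes of JAK and STAT signalling, IRF factors and their inhibitors, 13 had a higher mean in Elmo1-/-, with a median log2 fold change of 0.10, and none was called. It was 10 of 15 without Elmo1-/- replicate 1, with a median of 0.091. Irf7, Jak1 and Jak2, the highest of that list per kilobase, had log2 fold changes of 0.37 ± 0.51, -0.03 ± 0.06 and 0.09 ± 0.08. The direction of Irf7 rested on Elmo1-/- replicate 1, without which the value was -0.16 ± 0.29.

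Of 19 other genes that interferon gamma induces, 17 were tested, 15 had a higher mean in Elmo1-/- and the median log2 fold change was 0.28. None was called by limma, and 3, Cxcl10, Ifi44 and Rsad2, had an unadjusted p under 0.05, against 0.941% of all genes tested. Without Elmo1-/- replicate 1 the median was 0.14, with a higher mean in 14 of 17. Only Cxcl10 and Ifi44 then had an unadjusted p under 0.05 by limma, against 2.35% of all genes. Cxcl10, a chemokine, had 829, 971, 659 and 999.6 normalized counts in Elmo1-/- and 388, 443, 512 and 755 in Elmo1+/- libraries. It was higher in all 4 numbers and, unlike the IRG genes, was not highest in Elmo1-/- replicate 1. Isg15, Cd274 and Psmb8, the highest of the list per kilobase, had log2 fold changes of 0.43 ± 0.28, 0.02 ± 0.13 and 0.11 ± 0.19. Without Elmo1-/- replicate 1 these were 0.14 ± 0.16, 0.07 ± 0.14 and -0.08 ± 0.12, so that the direction of Psmb8 turned.

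Genes of proteins that work with these GTPases on the vacuole and in the inflammasome were split in direction. Of 23 such genes, among them the autophagy genes that place the IRG proteins, 12 had a higher mean in Elmo1-/-, the median log2 fold change was 0.0041 and none was called. The count was 8 of 23 without Elmo1-/- replicate 1, with a median of -0.015. Arhgdia, Sqstm1 and Gabarap were the highest per kilobase, with log2 fold changes of 0.012 ± 0.11, 0.0041 ± 0.085 and -0.027 ± 0.13. Nlrp3 and Casp4, genes of the inflammasomes that GBP proteins act on, had log2 fold changes of 0.11 ± 0.082 and -0.0030 ± 0.14.

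The genes whose pattern was most like that of the members were sought over the 8 libraries, as the highest Pearson correlation of a gene's log2 values with the mean z-score of the 10 members. The first 10 were Ifit1 (r = 0.993), Cmpk2 (0.978), Rsad2 (0.966), Herc6 (0.963), Parp12 (0.962), Trim12c (0.961), Trim30d (0.954), Ifit3 (0.947), Ifit2 (0.941) and Ifi44 (0.940). The 8 points share the library differences described above, and Elmo1-/- replicate 1 was the highest of the mean z-score at 1.44, with Elmo1+/- replicate 1 the lowest at -1.11. Without Elmo1-/- replicate 1 the r of Ifit1 was 0.987, and after the means of the replicate sets were taken out it was 0.994. Gm4951, an IRG gene, was the most alike on the latter measure, at 0.997. Its r was 0.817 over the 8 libraries and 0.597 without Elmo1-/- replicate 1. Among the members themselves Gbp7 was the least like their mean, at 0.403, and Iigp1 the most, at 0.955, where each gene is part of that mean.

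**Figure D5:**
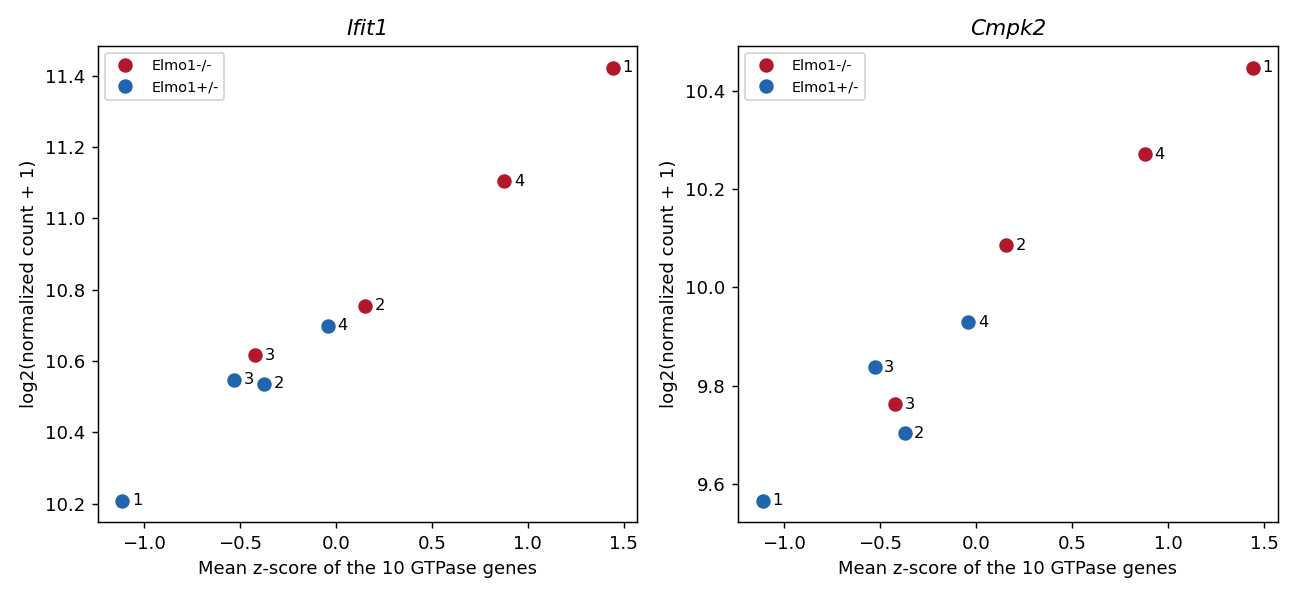
Log2(normalized count + 1) of Ifit1 and of Cmpk2 (vertical axes) against the mean z-score of the 10 GTPase genes (horizontal axes) in the 4 Elmo1-/- (red) and 4 Elmo1+/- (blue) libraries, labelled by replicate number. Elmo1-/- replicate 1 is the highest point of both panels and Elmo1+/- replicate 1 the lowest.

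Markers of T, NK and B cells and of dendritic cells were low. Of 11 markers of T, NK and B cells only Cd4, which myeloid cells also make, passed the filter, Cd3g and Ncr1 were at 0 in all libraries, and the list summed to 70.1 to 241 normalized counts in Elmo1-/- and to 51.4 to 122 in Elmo1+/- libraries. Of 7 dendritic cell markers Cd209a was at 0 in every library, Siglech reached 1.20, and the sums were 85.0 to 160.3 and 115 to 177. The 9 neutrophil and precursor markers summed to 10360 to 22636 and to 12313 to 21529.7, the highest again in Elmo1-/- replicate 1, and the part of these cells in the result was not tested. Of the 8 stromal and osteoblast markers 5 passed the filter, and Bglap and Alpl were at or near 0. Their sums were 1043 to 1737 in Elmo1-/- and 1093 to 1623 in Elmo1+/- libraries, and the part of such cells was not tested either. No gene of the 6 marker lists was called between genotypes, and Acp5, Ctsk and Mmp9 were high in all libraries, each at 69531 normalized counts or more, which checks the label of osteoclasts.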

How the data were processed

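Osteoclast cultures from bone marrow of 4 Elmo1-/- and 4 Elmo1+/- mice were analysed. The authors sequenced poly(A) mRNA libraries (TruSeq) as 75 bp paired-end reads on a NextSeq, and the submitters' processing notes name FastQC, STAR, featureCounts and DESeq2. For the genome build and gene models, the sources used here give no name. Each deposited value is a normalized signal, for which the authors scaled the reads of each gene by a DESeq2 size factor. Further deposited columns hold the authors' DESeq2 comparison (log2 fold change and its error, a test score, and a raw and an adjusted p-value), and these were not used.

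GENCODE mouse release 21 (GRCm38) gave symbols, positions and exon lengths for 46005 identifiers, and 512 had no match. The values of every library were whole multiples of a step (tolerance of 0.01 read), which returned the reads. The step of Elmo1+/- replicate 2 was 0.989. Genotypes were compared with limma 3.58.1 (R 4.3.3), moderated with a trend and robustly, on log2(normalized count + 1). Genes needed 10 normalized counts in 4 libraries, and p-values were adjusted by Benjamini-Hochberg over all of them, with a threshold of 0.05. Fold changes on this scale understate those of low genes. The p-values measure the spread between these cultures, each of another mouse. Pairs of libraries of a genotype differed by a chi-square per gene of 8.58 to 188, so none were copies. The fits were tested on simulated data. Those data gave every gene the same dispersion and held no outlying library, and those for the genotype test held no difference between replicate sets. The test of the fits therefore does not cover these features of the real libraries.

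Libraries of the same number deviated together from their genotype means, with correlations across genes of 0.703, 0.156, 0.598 and 0.520 for numbers 1, 2, 3 and 4. All were over 0.1, and the numbers were therefore taken to pair the libraries, although what they stand for is not stated. Different numbers within a replicate set gave 0.691 for Elmo1-/- replicate 1 with Elmo1+/- replicate 2, and 0.026 for Elmo1-/- replicate 2 with Elmo1+/- replicate 1. They gave 0.561 for Elmo1-/- replicate 3 with Elmo1+/- replicate 4, and 0.614 for Elmo1-/- replicate 4 with Elmo1+/- replicate 3. A pairing by number can thus not be told apart from the grouping into replicate sets. Alternatives were edgeR 4.0.16 and DESeq2 1.42.0 on the reads, scaling to equal totals or by TMM, no filter or one at 50 normalized counts, a pseudocount of 0.5 or 8, each library left out, a replicate block, and the replicate sets as a term or alone. Those of the interaction, the count over numbers 2, 3 and 4, and leaving out Elmo1-/- replicate 1 for the other gene lists, were chosen after seeing the data.

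The 10 members and all gene lists were chosen with earlier results of these data known. Named genes were the members, Elmo1, genes of the lists that passed a threshold or were among the 3 highest by level, defining markers, and the 10 genes most like the members. Those named for an unadjusted p were chosen after their values were seen. Python 3.11.15 was used for summaries.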

Additional observations from a re-analysis of the deposited data

How the results depend on the processing

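The means of all 10 GTPase genes were higher in Elmo1-/- under all 21 alternatives of the genotype comparison, 210 of 210 values. The median log2 fold change was between 0.17 and 0.56, and no member was called under any of them. A changed filter, the replicate block and the replicate set as a term cannot change these fold changes, and their median stayed at 0.35. The alternatives also share libraries, so the 210 values are not independent. The replicate block changed no call of a member. The count of genes called between genotypes was 1 with all libraries by limma and 2 with DESeq2 and in libraries numbered 3 and 4 alone, and 1 to 2 when single libraries were left out, with 2 without Elmo1+/- replicate 2. At an unadjusted p under 0.05 by limma, the members ran from 0 to 7. The 7 were found without Elmo1-/- replicate 3, where 200 of all 14005 genes were under 0.05. The count was 0 without Elmo1-/- replicate 4 (143 of 14026 genes) and without Elmo1+/- replicate 1 (70 of 14031). It was also 0 in libraries numbered 3 and 4 alone (419 of 14139).

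Between the replicate sets, 2 members were called, against 32.6% of all genes tested. The count of members was 1 with TMM rescaling (4567 of 14139 genes called), without a filter (4172 of 24638) and with a pseudocount of 0.5 (4596 of 14139). It was 1 to 3 when single libraries were left out, with 3 without Elmo1-/- replicate 3 (2863 of 14005 genes called). Across these fits, 2861 of 14031 genes (without Elmo1+/- replicate 1) to 6897 of 14053 (without Elmo1-/- replicate 2) were called. The counts are thus not a result about the members. The log2 difference of Gbp9 ran from -0.081 to 0.15 when single libraries were left out, below 0 without Elmo1-/- replicate 2 (-0.015), Elmo1-/- replicate 4 (-0.052), Elmo1+/- replicate 1 (-0.066) or Elmo1+/- replicate 4 (-0.081). That of Iigp1 ran from -0.41 to 0.080, above 0 without Elmo1-/- replicate 1 (0.080) or Elmo1-/- replicate 3 (0.021). The cause was not tested. For the interaction no member was called under any alternative that kept all 8 libraries, where 14 genes were called with DESeq2 and 0 by limma. Leaving out a library leaves 1 library in a group of genotype and replicate set, so those fits are given by effect size alone. In them the median interaction of the members ran from -0.72 (without Elmo1-/- replicate 2) to -0.056 (without Elmo1-/- replicate 1), against -0.41 with all libraries. At an unadjusted p under 0.05 the interaction held 1 member in the main limma fit of all libraries, against 2.67% of all genes tested. By limma it held 2 members with scaling to equal totals (321 of 14106 genes) and without a filter (852 of 24638). With DESeq2 it held 3 members, against 245 of 14139 genes.

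Outside the members, some values turned below 0 without Elmo1-/- replicate 1, an alternative chosen after seeing the data. Among them were the medians of the interferon ligand and receptor list (-0.0064) and of the vacuole and inflammasome list (-0.015). The medians of the macrophage markers (-0.016) and of the neutrophil and precursor markers (-0.38) turned too. Single genes that did so included Irf7 (-0.16), Psmb8 (-0.080), Arhgdia (-0.079) and Sqstm1 (-0.015). None of these genes was called.

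The lowest read counts of a member in a library were 54, 58 and 94, for Iigp1, Tgtp2 and Gbp5, and whether depth limited any call was not tested.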
